A study of Mus musculus with 6 samples.

Results

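The 9 genes described here encode the committed enzymes of gluconeogenesis (Pck1, G6pc, Fbp1 and Pcx), a pair of their transcriptional regulators (Ppargc1a and Foxo1) and the receptor and docking proteins of insulin signalling (Insr, Irs1 and Irs2). They were picked for their pathway with earlier results of these data known, and were found in the deposited expression table by gene symbol, where each symbol matched 1 of 25718 genes. All 9 passed the filter on low counts and were among the 15957 genes tested. Primary hepatocytes, which form most of the liver tissue, were taken from WT and S100a16KO+/- mice, all fed alcohol, and poly(A)-selected RNA of each genotype was sequenced in 3 libraries. S100a16KO+/- mice carry 1 deleted allele of S100a16, a calcium-binding protein gene; the sample labels call them S100A16 knockdown. The deletion was made with EIIa-Cre, which acts in the whole body and not in hepatocytes alone, on a largely C57BL/6 background. In the feeding model of the study, male mice 8 to 10 weeks old received 5 days of control liquid diet, 10 days of a diet with 5% ethanol and 5 g/kg ethanol by gavage, with tissue taken 9 h later. Both genotypes received ethanol, so no library here shows the genes without it. Whether the sequenced cells were kept in culture before RNA extraction is not given in the sources used here.

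The liver releases glucose that it makes from lactate, amino acids and glycerol. In the fed state insulin binds its receptor on hepatocytes, the receptor phosphorylates IRS1 and IRS2, and these dock PI3-kinase and activate AKT. AKT phosphorylates FOXO1 and removes it from the nucleus, which lowers transcription of Pck1, G6pc and Irs2. In the fasted state glucagon raises cAMP, and CREB with its coactivator CRTC2 raises Ppargc1a, whose product PGC-1α coactivates the same genes together with FOXO1 and HNF4α. These are textbook relations, and the data below are levels of RNA, from which neither protein nor glucose output can be read.

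S100a16 had 1001, 1056 and 1107 estimated counts in the WT libraries and 433, 390 and 366 counts in the S100a16KO+/- libraries, so the labels matched the targeted gene. Library totals of the estimated counts ran from 67658095 to 71807834, and 1 sequenced fragment was worth about 4 counts. On the second principal component, which held 12.8% of the variance, WT replicate 1 and S100a16KO+/- replicate 2 stood apart from the other libraries. Mitochondrial genes held 21.1% and 20.1% of the counts in these libraries, against 17.0% to 18.6% in the others. The reason for this difference was not tested. Leaving out both libraries changed no call among the 9 genes. The 8 hepatocyte markers had a summed level of 47000 to 48000 FPKM in WT and 46100 to 47000 FPKM in S100a16KO+/- libraries, a sum made up mostly of Alb; 1 of the 8 was higher (Tat) and 2 were lower (Ttr and Cyp2e1). Traces of other cells differed between the genotypes. Sinusoidal endothelial markers summed to 34.0 to 37.2 FPKM in WT and 49.0 to 51.7 FPKM in S100a16KO+/- libraries (5 of 6 higher, 1 lower), and stellate cell markers to 7.03 to 7.27 and 12.4 to 13.0 FPKM (4 of 6 higher). Erythroid markers summed to 261 to 288 FPKM in WT and 25.2 to 26.2 FPKM in S100a16KO+/- libraries, with 5 of 5 lower. Kupffer cell and macrophage markers summed to 42.7 to 52.3 and 47.5 to 55.6 FPKM (1 of 6 higher). The 5 cholangiocyte markers summed to 1.68 to 2.40 and 2.03 to 2.50 FPKM. Of these 4 were tested and 1 was lower, and Krt7 did not pass the filter on low counts. Leukocyte markers summed to 3.29 to 4.70 and 4.18 to 5.61 FPKM (0 of 5 called in edgeR, and 0 with an unadjusted p under 0.05). No marker was at 0 in every library. The part of these cells in the results below was not tested, and in bulk RNA a change in the number of cells of a type cannot be told apart from a change of RNA per cell.

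The promoters of the 5 genes that moved most are shown because insulin and cAMP are known to act on several of these genes through short promoter elements. Each is the RefSeq sequence on GRCm38.p6 from 250 bases before to 50 bases after the annotated start, 5′ to 3′ on the gene's strand, and 8 of the 9 genes had an entry. Capitals mark matches, on either strand, to the FOXO core TGTTTAC, the insulin response element core TGTTTTG, the full cAMP response element TGACGTCA or its shorter core TGACG. The shorter core was added after the first 3 words had been searched.
Pck1, chr2:173152823-173153122, plus strand: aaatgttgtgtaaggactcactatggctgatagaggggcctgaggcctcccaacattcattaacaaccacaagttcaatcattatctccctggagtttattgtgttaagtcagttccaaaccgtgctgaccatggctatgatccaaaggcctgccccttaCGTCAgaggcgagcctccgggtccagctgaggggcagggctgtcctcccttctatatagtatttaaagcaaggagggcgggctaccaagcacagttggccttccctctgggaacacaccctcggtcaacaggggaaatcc
Ppargc1a, chr5:51567676-51567975, minus strand: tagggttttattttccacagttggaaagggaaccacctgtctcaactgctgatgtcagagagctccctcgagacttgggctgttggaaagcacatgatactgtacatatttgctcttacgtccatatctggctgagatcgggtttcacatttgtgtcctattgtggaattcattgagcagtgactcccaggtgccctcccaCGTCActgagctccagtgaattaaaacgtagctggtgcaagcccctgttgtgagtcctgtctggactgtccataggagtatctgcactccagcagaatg
G6pc, chr11:101367466-101367765, plus strand: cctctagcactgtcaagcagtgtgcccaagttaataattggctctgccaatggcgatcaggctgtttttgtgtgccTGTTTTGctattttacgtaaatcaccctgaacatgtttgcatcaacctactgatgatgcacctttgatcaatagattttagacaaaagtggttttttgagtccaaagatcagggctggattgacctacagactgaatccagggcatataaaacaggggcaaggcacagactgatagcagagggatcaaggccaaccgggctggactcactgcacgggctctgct
Irs2, chr8:11008880-11009179, minus strand: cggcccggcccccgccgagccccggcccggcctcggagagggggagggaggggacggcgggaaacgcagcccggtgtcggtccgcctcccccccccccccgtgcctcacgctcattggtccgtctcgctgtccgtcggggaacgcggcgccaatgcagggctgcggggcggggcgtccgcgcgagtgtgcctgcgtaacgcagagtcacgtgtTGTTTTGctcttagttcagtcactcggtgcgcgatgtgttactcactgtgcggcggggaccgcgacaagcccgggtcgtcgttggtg
Irs1, chr1:82291390-82291689, minus strand: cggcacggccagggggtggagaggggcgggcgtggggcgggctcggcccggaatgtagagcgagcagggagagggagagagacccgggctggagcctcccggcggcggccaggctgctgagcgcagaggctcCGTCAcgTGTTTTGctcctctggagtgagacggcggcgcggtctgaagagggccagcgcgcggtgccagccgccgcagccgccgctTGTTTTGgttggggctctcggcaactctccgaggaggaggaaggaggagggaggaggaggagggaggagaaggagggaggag

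The insulin response element core was present in the windows of G6pc (1 match, 174 bases before the start), Irs2 (1 match, 37 bases before) and Irs1 (2 matches, 111 and 32 bases before). It occurs in 6.28% of the 32851 RefSeq promoters of the same length. The shorter cAMP core was present in Pck1, 90 bases before the start, in Ppargc1a, 49 bases before, and in Irs1, 118 bases before, and occurs in 20.8% of all promoters. Neither the FOXO core (3.65% of promoters) nor the full cAMP response element (1.79%) was found in the windows of the 8 genes. A match is a description of letters and not of a bound site. In base composition the windows ranged widely. Irs1 and Irs2 had 71.3% and 72.0% GC with 28 and 41 CpG pairs, whereas Pck1, G6pc and Ppargc1a had 46.7% to 52.0% GC and 4 to 6 CpG pairs, against a median of 52.7% and 7 over all promoters. The windows of Foxo1 (61.3% GC, 31 CpG pairs), Pcx (61.7% with 20 and 57.0% with 5 at its 2 starts) and Fbp1 (57.3%, 6) lay between these in GC content. The RefSeq start of Irs2 lies 471 bases upstream of the start of the gene in the expression table. That of G6pc (101367716) lies downstream of the deposited start (101367561), and so does the second start of Pcx (4594319 against 4510472). Distances to matches are counted from the RefSeq start.

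Levels are compared between genes in FPKM, which are scaled for gene length and library size, and between genotypes in CPM, counts scaled only for library size with TMM factors. In WT hepatocytes the enzymes Pck1, Fbp1 and G6pc had means of 569.7, 512.1 and 322.7 FPKM, with ranges over the 3 libraries that did not overlap between genes, and Pcx had 82.3 ± 5.24 FPKM. Insr followed at 9.57 ± 0.479 FPKM, then Irs2 at 4.14 ± 0.138, Irs1 at 2.19 ± 0.278, Foxo1 at 2.09 ± 0.0339 and Ppargc1a at 0.919 ± 0.0543 FPKM (SD, n = 3 each). Among neighbours in this order only Irs1 and Foxo1 overlapped between libraries. In S100a16KO+/- hepatocytes the order of the enzymes was the same, led by Pck1 at 1473 ± 114.9 FPKM (SD, n = 3), and 47 genes of the table had a higher mean than Pck1, against 82 in WT. The signalling genes changed places: Irs2, at 17.1 ± 0.692 FPKM, lay above Insr, at 9.28 ± 0.696, and Ppargc1a, at 3.60 ± 0.0694, lay above Foxo1, at 1.86 ± 0.115 (SD, n = 3 each). Irs1 was the lowest of the 9 there, at 1.48 ± 0.138 FPKM (SD, n = 3), and no neighbours overlapped.

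**Figure D1:**
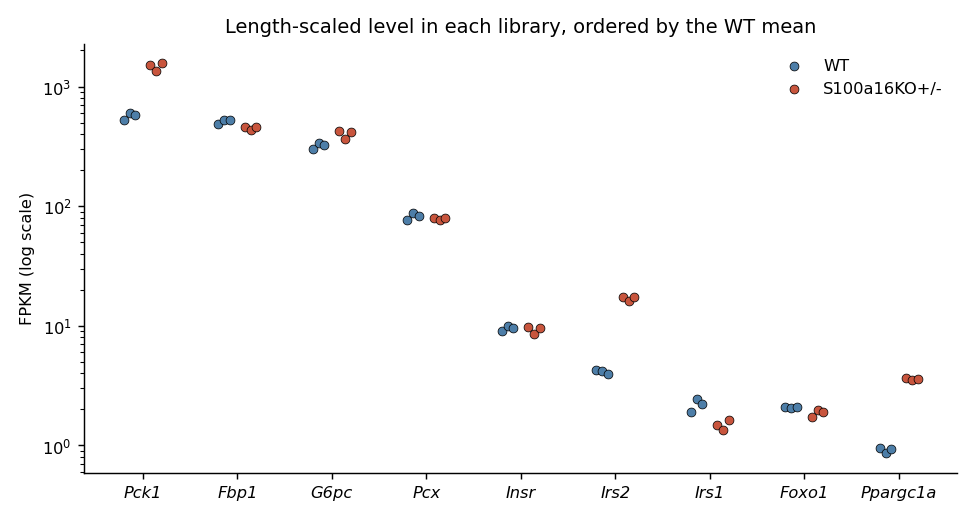
FPKM of each gene (log scale) in the 3 WT and 3 S100a16KO+/- libraries, 1 point per library, genes ordered by their WT mean. Pcx, the lowest of the enzymes, lies at 76.1 FPKM or above in every library; Irs2 lies below Insr in the WT libraries and above it in the S100a16KO+/- libraries.

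The comparison between genotypes addressed whether loss of 1 S100a16 allele was accompanied by other levels of these genes under alcohol feeding. Pck1, G6pc, Ppargc1a and Irs2 were higher and Fbp1 and Irs1 lower in S100a16KO+/- hepatocytes, and Pcx, Foxo1 and Insr did not pass the test. Thus 6 of 9 genes had an adjusted p under 0.05 in edgeR's quasi-likelihood test, with 4 higher and 2 lower, where 22.8% of all tested genes passed, 11.6% higher and 11.2% lower. Irs2, Ppargc1a and Pck1 also met the criterion of the study, a change of at least 2-fold at an unadjusted p under 0.05, which 4.52% of tested genes met. The study applied this criterion with DESeq2, whereas here it was applied to the edgeR fit, where 721 of 15957 genes met it. With DESeq2 on these counts 944 of 25701 genes met it. The genotypes did not overlap in CPM for 7 of the 9 genes, against 37.9% of tested genes. The median log2 fold change of the 9 genes was -0.05, and that of all tested genes was 0.01. Since the 9 genes were chosen with earlier results of these data known, these shares describe the genes and are no test of the pathway.

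Among the enzymes, Pck1 encodes cytosolic phosphoenolpyruvate carboxykinase, which turns oxaloacetate into phosphoenolpyruvate. Pck1 (ENSMUSG00000027513, chromosome 2 from 173153048 to 173159273 on GRCm38) had 2132, 2238 and 2189 CPM in the WT libraries and 5703, 5432 and 5730.0 CPM in the S100a16KO+/- libraries. All 3 S100a16KO+/- values lay above every WT value, and within each genotype the coefficient of variation was 2.42% and 2.94%. The level was 2.57-fold that of WT (95% interval of the fit 2.41 to 2.74), or 1.36 ± 0.04 (SE) on the log2 scale, with an adjusted p of 2.39e-11 by edgeR. By the size of its log2 fold change Pck1 ranked 565th of the tested genes in either direction.

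G6pc encodes the catalytic subunit of glucose-6-phosphatase, which releases free glucose in the last step. G6pc (ENSMUSG00000078650, chromosome 11 from 101367561 to 101377903) had 863.3, 889.6 and 863.1 CPM in WT and 1113, 1038 and 1088 CPM in S100a16KO+/- libraries. The genotypes did not overlap, but the rise was 1.24-fold (95% interval 1.16 to 1.32), much smaller than that of Pck1. On the log2 scale the change was 0.31 ± 0.05 (SE), with an adjusted p of 0.000186 by edgeR. With limma on log2(FPKM + 1) and no filter on low values it was 0.31 and did not pass (adjusted p of 0.0793).

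Fbp1 encodes fructose-1,6-bisphosphatase, which opposes phosphofructokinase. Fbp1 (ENSMUSG00000069805, chromosome 13 from 62864753 to 62888282) had 981.8, 959.5 and 987.0 CPM in WT and 857.5, 872.5 and 837.4 CPM in S100a16KO+/- libraries. Every S100a16KO+/- value lay below every WT value. The level was 87.7% of that in WT (-0.19 ± 0.04 on the log2 scale, SE; adjusted p of 0.00581 by edgeR), so that this enzyme moved in the direction opposite to Pck1 and G6pc. In the unfiltered limma setting the difference of Fbp1 was -0.18 and did not pass (adjusted p of 0.0927).

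Pcx encodes pyruvate carboxylase, the mitochondrial enzyme that makes oxaloacetate from pyruvate. Pcx (ENSMUSG00000024892, chromosome 19 from 4510472 to 4621752) had 432.0, 451.1 and 429.8 CPM in WT and 413.2, 427.0 and 405.3 CPM in S100a16KO+/- libraries. The CPM values did not overlap, but the FPKM values did (77.1 to 87.6 against 76.1 to 79.5), and the difference did not pass the test. The log2 fold change was -0.08 (95% interval -0.18 to 0.03, adjusted p = 0.292 in edgeR).

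**Figure D2:**
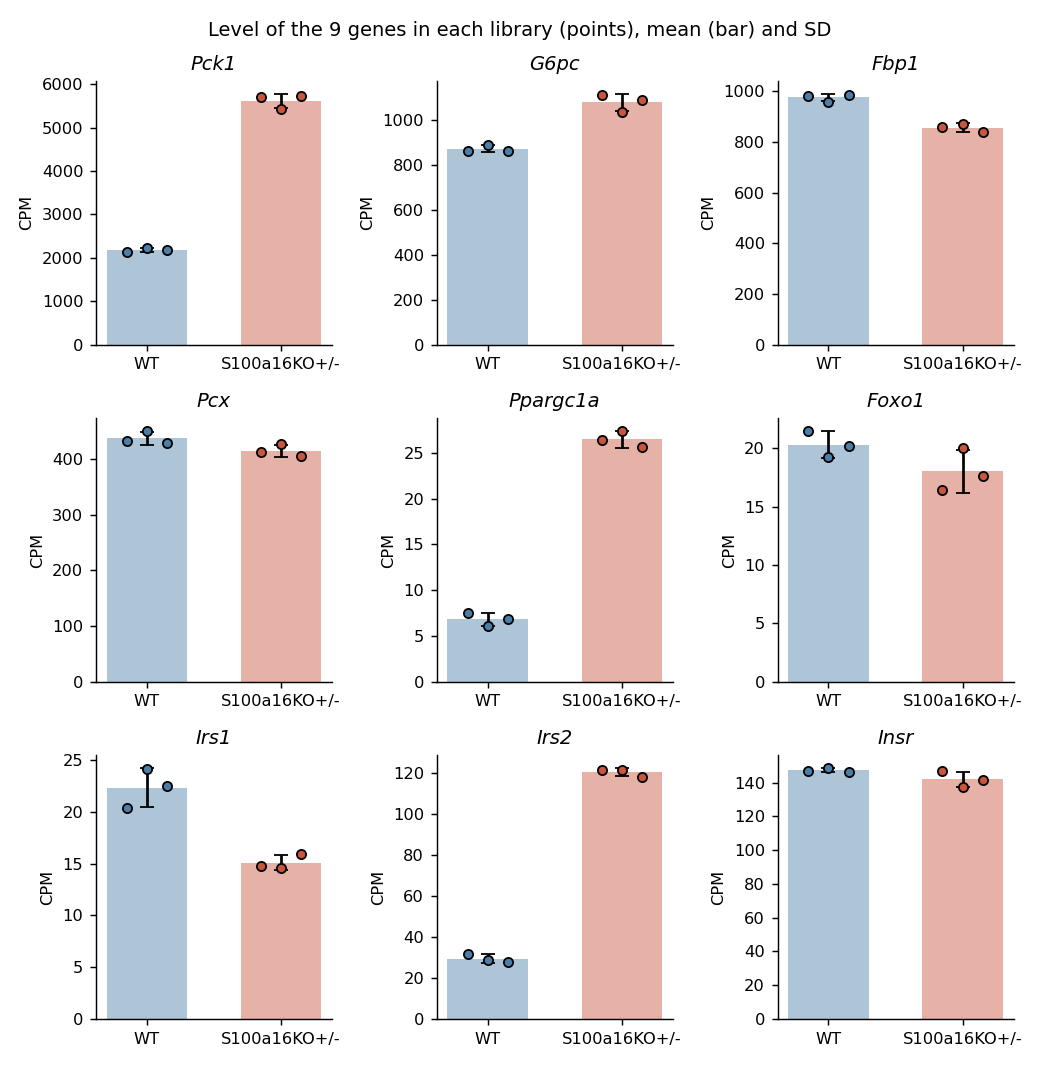
CPM (TMM scaled, axes from 0) of each of the 9 genes in the WT and S100a16KO+/- libraries; points are libraries, bars the mean of 3 and whiskers the SD. Pck1, Ppargc1a and Irs2 separate widely, G6pc, Fbp1 and Irs1 by less, and Foxo1 and Insr overlap between genotypes.

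Of the regulators, Ppargc1a had the lowest WT level of the 9 genes by FPKM and was higher in all 3 S100a16KO+/- libraries. Ppargc1a (ENSMUSG00000029167, chromosome 5 from 51454250 to 51567704) had 7.48, 6.14 and 6.82 CPM in WT and 26.4, 27.4 and 25.6 CPM in S100a16KO+/- libraries. The lowest S100a16KO+/- value exceeded the highest WT value by more than the whole range within either genotype. The level was 3.88-fold that of WT (95% interval 3.37 to 4.47), or 1.96 ± 0.09 (SE) on the log2 scale, with an adjusted p of 2.44e-09 by edgeR. On log2(FPKM + 1), where the pseudocount weighs on low genes, the log2 fold change was 1.26. Gm42615, a gene inside the span of Ppargc1a on the same strand with no shared exon, had 3, 2 and 0 counts in WT and 44, 30 and 23 counts in S100a16KO+/- libraries. How the counting divided reads between the genes was not given in the sources used here. In the GENCODE M21 annotation Ppargc1a has a different start or end and 5 transcripts, where the deposited entry has 2.

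Foxo1 encodes the transcription factor on which insulin acts. Foxo1 (ENSMUSG00000044167, chromosome 3 from 52268336 to 52353221) had 21.5, 19.3 and 20.2 CPM in WT and 16.5, 20.04 and 17.6 CPM in S100a16KO+/- libraries. S100a16KO+/- replicate 2 lay within the WT range. The log2 fold change was -0.17 (95% interval -0.37 to 0.02, adjusted p = 0.202 in edgeR). The level of Foxo1 RNA carries no measure of the phosphorylation or location of the protein.

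In insulin signalling, the receptor did not pass the test and its main substrates moved in opposite directions. Insr (ENSMUSG00000005534, chromosome 8 from 3122061 to 3279617), the insulin receptor, had 146.6, 148.7 and 146.5 CPM in WT and 146.6, 137.5 and 141.7 CPM in S100a16KO+/- libraries. S100a16KO+/- replicate 1 lay inside the WT range and the other libraries of that genotype below it. The log2 fold change was -0.05 (95% interval -0.16 to 0.06, adjusted p = 0.527 in edgeR).

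Irs2 encodes the substrate whose transcription is known to fall after feeding. Irs2 (ENSMUSG00000038894, chromosome 8 from 10984681 to 11008458) had 31.8, 28.6 and 27.8 CPM in WT and 121.5, 121.4 and 117.8 CPM in S100a16KO+/- libraries. All S100a16KO+/- values lay far above every WT value, with a coefficient of variation of 7.22% in WT and 1.74% in S100a16KO+/- hepatocytes. The level was 4.09-fold that of WT (95% interval 3.72 to 4.49), or 2.03 ± 0.06 (SE) on the log2 scale, with an adjusted p of 1.66e-11 by edgeR. In size of log2 fold change Irs2 ranked 185th of the tested genes in either direction, and Ppargc1a ranked 213th. An antisense transcript that shares exonic sequence with Irs2, 9530052E02Rik, had 11 counts in WT replicate 3 and 0 counts in the other libraries. Whether the counting used strand is not given in the sources used here, and without it reads of Irs2 and of the antisense gene cannot be told apart. The same limit holds for Irs1 and Foxo1, whose exons overlap those of Gm9747 and Gm20402 on the other strand. Neither of these is among the deposited genes.

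Irs1 (ENSMUSG00000055980, chromosome 1 from 82233101 to 82291416) encodes the other main substrate of the hepatic receptor. Irs1 had 20.4, 24.2 and 22.5 CPM in WT and 14.8, 14.6 and 15.9 CPM in S100a16KO+/- libraries, so that every S100a16KO+/- value lay below every WT value. The level was 67.5% of that in WT (log2 fold change -0.57, 95% interval -0.76 to -0.38, adjusted p = 0.000266 in edgeR). On log2(FPKM + 1) with no filter on low values the log2 fold change of Irs1 was -0.36 and did not pass (adjusted p = 0.0735, limma).

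Within each library, Irs2 RNA was 2.26, 1.71 and 1.78 times Irs1 RNA by FPKM in the WT libraries and 11.9, 12.1 and 10.7 times in the S100a16KO+/- libraries. Log2 of the ratio of Irs1 to Irs2 was -0.93 ± 0.22 in WT and -3.53 ± 0.10 in S100a16KO+/- hepatocytes (SD, n = 3 each), a difference of -2.60. The exact permutation test, two-sided over 20 assignments of the libraries, gave p = 0.1, the smallest value that 3 libraries against 3 allow. Both genes already separated the genotypes in opposite directions, so this outcome was fixed and adds nothing to their own differences.

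**Figure D3:**
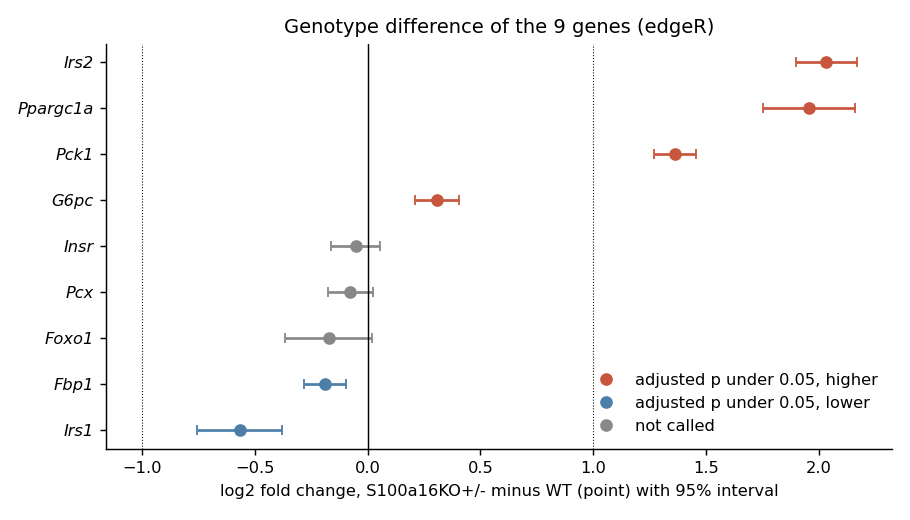
Log2 fold change (S100a16KO+/- minus WT, edgeR) of the 9 genes with 95% intervals; dotted lines mark a change of 2-fold. Irs2, Ppargc1a and Pck1 lie beyond 1, G6pc at 0.31, Fbp1 at -0.19 and Irs1 at -0.57, and the intervals of Insr, Pcx and Foxo1 cross 0.

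The other genes of the pathway were taken from 9 lists that hold 134 genes, of which 132 were tested. Some genes stand in more than 1 list. Counts and medians of a list include those of the 9 genes that stand in it. Over all tested genes 22.8% were called, 11.6% higher and 11.2% lower, and the median log2 fold change was 0.01. Shares of lists this short are descriptions only. For the gluconeogenic enzymes and glucose export, 5 of 19 tested genes were higher and 6 lower, against 11.6% and 11.2% of all tested genes, and the median change (log2) was -0.08. This list holds 4 of the 9 genes, and without them 3 were higher and 5 lower. Outside the 9 genes, Got1, the cytosolic aspartate aminotransferase of the malate-aspartate shuttle, rose from 164.6 ± 3.22 to 549.6 ± 23.3 CPM (SD, n = 3 each), which is 1.74 ± 0.05 (SE) on the log2 scale. Gpi1, glucose-6-phosphate isomerase, rose by 0.40 on the log2 scale (edgeR, adjusted p of 0.000163). The glucose-6-phosphate transporter Slc37a4, which works with G6pc, differed by 0.03 on the log2 scale (edgeR, adjusted p of 0.772), and the glucose transporter Slc2a2 had 0.02 (adjusted p = 0.792). The last 2 genes were named after their values were seen.

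Genes for entry of substrates moved in both directions, with 4 of 15 higher (11.6% of all tested genes), 7 lower (11.2%) and a median log2 fold change of -0.16. Sds, serine dehydratase, rose from 140.6 ± 6.40 to 309.1 ± 18.04 CPM, and Slc38a2, a transporter of neutral amino acids, from 156.9 ± 2.40 to 294.9 ± 13.8 CPM (SD, n = 3 each). Gpd1, glycerol-3-phosphate dehydrogenase, fell from 322.7, 309.6 and 300.04 CPM in WT to 183.5, 196.5 and 181.3 CPM in S100a16KO+/- libraries. Log2 fold changes of the 3 genes were 1.14, 0.91 and -0.73, each with an adjusted p of at most 1.78e-07 in edgeR. In the list of opposing glycolytic steps 4 of 9 tested genes were called, where 22.8% of all tested genes were, with 3 higher and 1 lower (11.6% and 11.2% of all) and a median of 0.19. Pdk4, a kinase that inhibits pyruvate dehydrogenase and is not itself a glycolytic step, rose with a log2 fold change of 0.89. The bifunctional enzyme Pfkfb1 rose with 0.34 and pyruvate kinase Pklr with 0.19. The list mixes enzymes with regulators, so its counts give no direction of glycolysis. Without WT replicate 2 or without WT replicate 3 the list held 2 called genes, and without S100a16KO+/- replicate 2 it held 6.

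Among transcription factors and coregulators, 4 of 25 genes were higher and 6 lower, beside 11.6% and 11.2% over all tested genes, and the median change (log2) was -0.05. The list holds 2 of the 9 genes, without which 3 were higher and 6 lower. Nr4a1, an orphan nuclear receptor induced by cAMP, rose from 8.51 ± 0.717 to 40.5 ± 3.75 CPM (SD, n = 3 each), which is 2.25 ± 0.09 (SE) on the log2 scale. Trib3, a pseudokinase that binds AKT, fell from 54.8 ± 3.52 to 17.8 ± 0.632 CPM (SD, n = 3 each), which is -1.62 ± 0.07 (SE) on the log2 scale. Sik1, a salt-inducible kinase that is itself a CREB target and restrains CRTC2, rose by 1.21 on the log2 scale (edgeR, adjusted p of 1.23e-09), and was named after its value was seen. Creb1, Crtc2 and Hnf4a had log2 fold changes of -0.09, 0.12 and 0.03, did not pass and were likewise named for their roles afterwards. The other genes called lower were Nr0b2 (-0.94), Foxa2 (-0.88), Cebpa (-0.70), Nr3c1 (-0.46) and Creb3l3 (-0.25), and Cebpb (0.49) was called higher. They too were named after their values were seen. In glucagon and cAMP signalling 2 of 12 genes were higher and 2 lower (11.6% and 11.2% of all tested genes), with a median of -0.05. With so few genes the counts say little about the list. The glucagon receptor Gcgr rose with a log2 fold change of 0.28 and the adenylate cyclase Adcy9 with 0.55, while the regulatory subunit Prkar2a and the anchoring protein Akap1 fell by 0.38 and 0.39 on the log2 scale.

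Insulin receptor signalling had 3 of 26 genes higher, where 11.6% of all tested genes were, and 5 lower, where 11.2% were, and the median change was -0.04 on the log2 scale. Beyond Irs2 and Irs1, Pik3r1, the regulatory subunit of PI3-kinase that docks on IRS proteins, fell from 41.6 ± 1.78 to 26.7 ± 0.900 CPM (SD, n = 3 each), which is -0.64 ± 0.06 (SE) on the log2 scale. Akt1, Akt2 and Pdpk1, the kinases downstream, had log2 fold changes of 0.11, 0.06 and -0.24, did not pass and were named after their values were seen. Of the inhibitors of the pathway 3 of 18 were higher and 4 lower (11.6% and 11.2% of all tested genes), with a median of 0.05. Socs2 rose from 19.9 ± 1.31 to 63.0 ± 4.77 CPM and Socs3 from 6.61 ± 0.853 to 17.9 ± 1.09 CPM (SD, n = 3 each). Both encode suppressors of cytokine signalling, and their log2 fold changes were 1.67 and 1.43. Trib3 stands in this list as well.

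A pair of lists was made of liver genes by their known response to insulin. Of 10 genes that insulin lowers through FOXO1, 7 were higher and 0 lower in S100a16KO+/- hepatocytes (11.6% and 11.2% of all tested genes), and the median change (log2) was 0.64; 5 of the 10 are among the 9 genes described above. The 3 other called genes were Igfbp1, an IGF binding protein, with a log2 fold change of 0.75, Pdk4 with 0.89 and the stress protein Sesn1 with 0.52, named after their values were seen. Insr, Klf15 and Sesn3 did not pass, with -0.05, 0.14 and 0.02. Of 7 tested genes that insulin raises, 5 were lower (11.2% of all tested genes) and 1 higher (11.6%), with a median of -0.89. Angptl8, a secreted protein induced by feeding, fell by 3.996 on the log2 scale, and Fasn, fatty acid synthase, by 1.57. The exception was Scd1, a fatty acid desaturase, which rose from 400.3 to 538.1 CPM, or 0.43 on the log2 scale (edgeR, adjusted p of 3.95e-05), and Acly, with 0.03, did not pass; both were named after their values were seen. The members of both lists were written with earlier results of these data known, so the counts are no independent evidence of their direction.

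**Figure D4:**
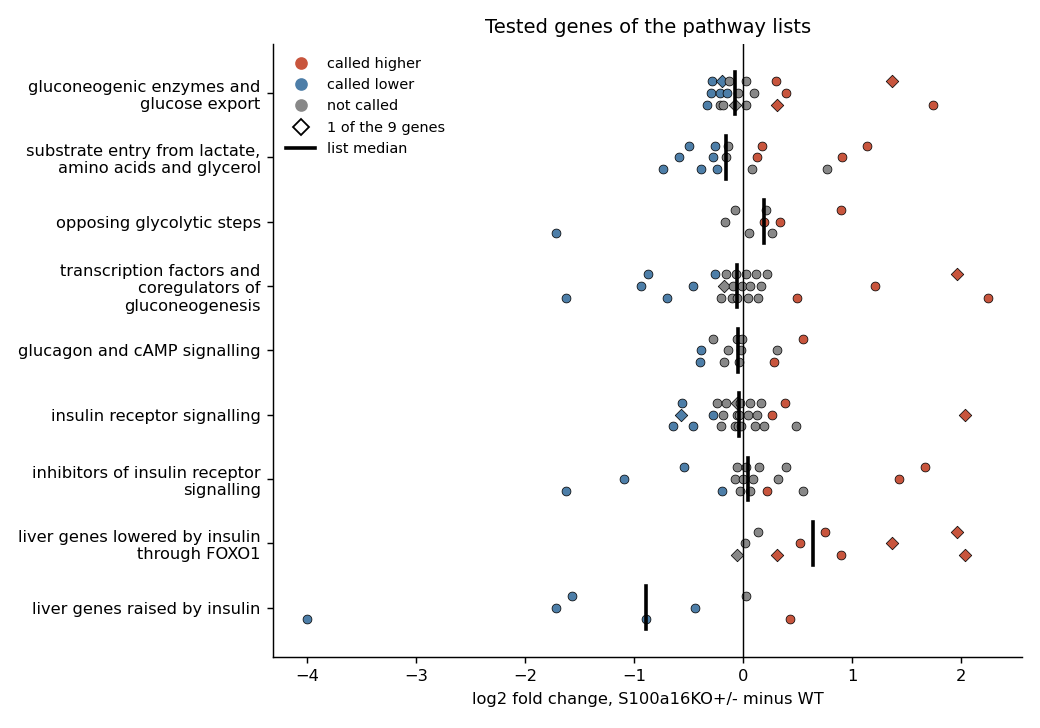
Log2 fold change (S100a16KO+/- minus WT, edgeR) of each tested gene of the 9 lists; colours mark genes called higher or lower at an adjusted p under 0.05, diamonds the 9 genes described above, and black ticks the list medians. Medians lie between -0.16 and 0.19 except for the genes that insulin lowers through FOXO1 (0.64) and those that it raises (-0.89).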

How the data were processed

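RNA of 6 libraries was analysed, 3 per genotype, mapped from their labels. In the table deposited by the authors, each gene has estimated counts, which were not scaled for library size, and FPKM values, which were scaled for gene length and library size. The submitters' processing notes name cutadapt 1.9, HISAT2 2.0.4, UMI-tools, StringTie 1.3.4d, DESeq2, edgeR and build mm10, without their roles. Counting by strand is not given in the sources used here. Of 25655 identifiers shared with GENCODE M21, 89.7% had the same start and end. Counts (67658095 to 71807834 per library) were rounded and compared with edgeR 4.0.16 in R 4.3.3 (TMM, filterByExpr, robust quasi-likelihood fit, two-sided, no covariate), with Benjamini-Hochberg adjustment over 15957 genes. A count of 0 allows up to 12 counts (3 fragments), for counting error only. The study gives 3 hepatocyte samples per group, isolated from mice of each genotype. Whether each library came from a separate mouse is not stated in the sources used here. The p-values therefore set the genotype difference against the variation between these libraries, which may not be variation between mice. Alternatives used DESeq2 1.42.0, limma 3.58.1, other filters and scaling, the replicate number as a block and left-out libraries. The fit was also run on counts simulated with means and dispersions taken from these data. That checks the code and not the libraries.

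Named genes were the 9 members and, per list, all called genes where 5 or fewer were called and otherwise the 3 with the largest change at a mean FPKM of at least 1; exceptions are marked. A gene that this rule names is not reported here. Members and lists were chosen with earlier results of these data known. Promoters come from RefSeq (GRCm38.p6); protein sequences were not used here.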

Additional observations from a re-analysis of the deposited data

How the results depend on the processing

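Over 17 other settings the 9 genes kept their direction in all 153 values and their side of the threshold in 150; G6pc, Fbp1 and Irs1 lost the call with limma on log2(FPKM + 1) without a filter, which left 3 of the 9 called. Leaving out any 1 library left 6 called. That unfiltered limma setting also gave 1666 genes called of 25718 tested, and 142 by the criterion of the study. It called 6, 4, 2 and 3 genes in the lists of enzymes, substrate entry, glycolytic steps and insulin receptor signalling. A mean FPKM of at least 1 left 9054 genes to test. Of these, limma called 2188 on log2(FPKM + 1) and 2167 on log2(FPKM + 0.1), or 137 and 251 by the criterion. It called 7 in substrate entry on both scales and 5 in insulin receptor signalling on the latter scale. The reported fit called 3643 and 721 of 15957 tested genes, so these counts are not shares of the same total. With CPM of at least 1 in 3 libraries, 382 of 12031 tested genes met the criterion. The causes of these shifts were not tested. Glycolytic steps ranged from 2 to 6 called genes with 1 library left out. Counts divided by 4, and leaving out both libraries that stood apart, were chosen after seeing the data. With the replicate block 6 of the 9 genes and 3082 of all tested genes were called. Libraries of the same number correlated at -0.42, -0.28 and -0.01, and 0 of 6 lay closest to their own number. Libraries of different numbers correlated at -0.22 (WT replicate 3 with S100a16KO+/- replicate 2) to 0.40 (WT replicate 1 with S100a16KO+/- replicate 2). Whether the numbers mark pairs is not given in the sources used here. These correlations, from deviations within 3 libraries per genotype, cannot decide it.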
